A study of Mus musculus with 4 samples.

Results

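The globins and the genes of the red cell programme were read on 4 two-colour oligonucleotide arrays that set 2 mouse embryonic tissues against each other. Metanephric mesenchyme (MM), which gives rise to the nephrons, was hybridised directly with intermediate mesoderm (IM), the mesodermal strip beside the somites, and both carried the label 10.5 dpc (days post coitum). The material was primary tissue dissected from embryos of both sexes; strain, genotype and pooling are not given in the labels. MM was in channel 1 on arrays 1 and 2, called forward arrays below, and in channel 2 on arrays 3 and 4, called swapped arrays, where the labels exchange the words mesenchyme and mesoderm between the tissue names. All values below are log2 ratios, positive where a gene was likely higher in MM, since the labels do not state the dye of each channel.

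The genes were chosen by symbol in the platform annotation: Hba-x, Hba-a1, Hbb-bh1, Hbb-y, Hbb-b1, Alas2, Klf1, Gata1 and Ermap. Of these 9 genes, 8 had a probe, with 2 probes for Hba-x, which made 9 probes out of 22702 on the array. Hbb-b1, an adult beta globin, was not analysed here. Among the 9 probes, 8 had a value on all 4 arrays, and none of their values stood at the lowest value of the table, -6.64, where a ratio of 0.01 falls on this scale; that value is handled as a floor, not as a measured ratio. The probe of Gata1 had values on arrays 1 and 2 alone.

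Haemoglobin pairs alpha-type with beta-type globin chains. In the mouse embryo, primitive red cells from the yolk sac carry embryonic chains, zeta from Hba-x and epsilon y and beta H1 from Hbb-y and Hbb-bh1, together with adult alpha chains from Hba-a1. These cells exchange beta H1 for epsilon y as they mature in the circulation, and definitive red cells from the fetal liver later use adult beta chains. Gata1 and Klf1 are transcription factors that switch on globin and heme genes, Alas2 is the erythroid enzyme for the first step of heme synthesis, and Ermap is an erythroid membrane protein of the immunoglobulin superfamily. A dissected tissue carries such transcripts in the blood of its vessels.

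Hba-x and Hba-a1 lie on chromosome 11 and Hbb-y lies on chromosome 7. Their probes gave similar profiles, below 0 on arrays 1 and 2 and above 0 on arrays 3 and 4, as did 18.3% of all tested probes. The 250 bases before the start of each are shown as a description. Any link between these sequences and that profile was not tested. They are RefSeq sequences of the build GRCm38.p6, read 5′ to 3′ in the direction of the gene. The positions are chr11:32276350-32276599 (plus strand) for Hba-x, chr11:32283422-32283671 (plus strand) for Hba-a1 and chr7:103853208-103853457 (minus strand) for Hbb-y. Capitals mark GATAA, the core read by GATA factors, CACCC, the core read by Klf1-type factors, and the promoter boxes CCAAT and TATAA, each searched on both strands.
Hba-x: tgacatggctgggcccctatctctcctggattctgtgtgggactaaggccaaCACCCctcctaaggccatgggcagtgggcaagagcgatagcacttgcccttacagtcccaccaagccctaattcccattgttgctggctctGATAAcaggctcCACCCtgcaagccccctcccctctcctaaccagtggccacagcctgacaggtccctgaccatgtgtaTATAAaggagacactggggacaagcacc
Hba-a1: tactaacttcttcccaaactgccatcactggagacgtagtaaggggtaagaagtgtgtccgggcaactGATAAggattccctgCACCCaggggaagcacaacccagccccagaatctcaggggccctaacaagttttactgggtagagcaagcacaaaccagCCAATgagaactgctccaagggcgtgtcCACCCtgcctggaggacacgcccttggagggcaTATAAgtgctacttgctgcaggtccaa
Hbb-y: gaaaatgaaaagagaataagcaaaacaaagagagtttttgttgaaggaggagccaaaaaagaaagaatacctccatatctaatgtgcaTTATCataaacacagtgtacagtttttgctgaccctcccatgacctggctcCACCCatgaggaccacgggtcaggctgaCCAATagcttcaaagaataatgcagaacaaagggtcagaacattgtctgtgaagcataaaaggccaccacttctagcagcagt
A GATAA began at -107 in Hba-x, at -182 in Hba-a1 and, on the opposite strand, at -162 in Hbb-y, counted from -1 at the base before the start. CACCC stood at -198 and -95 in Hba-x, at -167 and -60 in Hba-a1 and at -111 in Hbb-y. CCAAT was found at -88 in Hba-a1 and -83 in Hbb-y, and TATAA at -28 in Hba-x and -27 in Hba-a1. In the whole window, which adds 50 bases after the start, GATAA occurred in 6 of the 7 promoters of these genes in the RefSeq table and in 25.4% of all 32851 promoters. CACCC occurred in all 7, against 57.5% of all promoters. CCAAT and TATAA each occurred in 4 of the 7, against 37.4% and 24.9% of all promoters. The windows of Alas2, Klf1 and Ermap held GATAA too, and that of Gata1 did not. None of these letters overlapped another motif in the 3 sequences shown. Such matches describe the sequence and are not evidence of binding.

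Hbb-bh1 and Ermap were lower in MM than in IM on every array. Hbb-bh1 read -0.67, -0.87, -0.91 and -0.97 on arrays 1 to 4, so all 4 arrays lay close together on the IM side. The mean was -0.85 ± 0.13 (SD, n = 4), a 1.81-fold difference, with a 95% interval of -0.999 to -0.71 and a limma adjusted p = 0.00164. Ermap read -0.75, -0.65, -0.85 and -0.78, again with no array near 0. Its mean was -0.76 ± 0.09 (n = 4), a 1.69-fold difference, with a limma adjusted p = 0.0012. These were the only members below 0 on all 4 arrays, a pattern that 28.4% of the 14184 probes tested also showed.

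Both genes kept their direction and their call in limma without a term for channel orientation (adjusted p = 0.00456 for Hbb-bh1 and 0.0038 for Ermap). Over 11 alternative fits, 10 called each of them, with adjusted p-values of 0.00109 to 0.461 for Hbb-bh1 and 0.000841 to 0.461 for Ermap; the exception averaged each orientation to 1 value. The difference between orientations, forward minus swapped arrays, was 0.16 for Hbb-bh1 (adjusted p = 0.241) and 0.12 for Ermap (adjusted p = 0.245). An exact two-sided sign-flip permutation test over the 4 arrays cannot go below p = 0.125, which both probes reached. In dissected tissue, fewer red cells and less of a transcript in each red cell cannot be told apart.

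**Figure D1:**
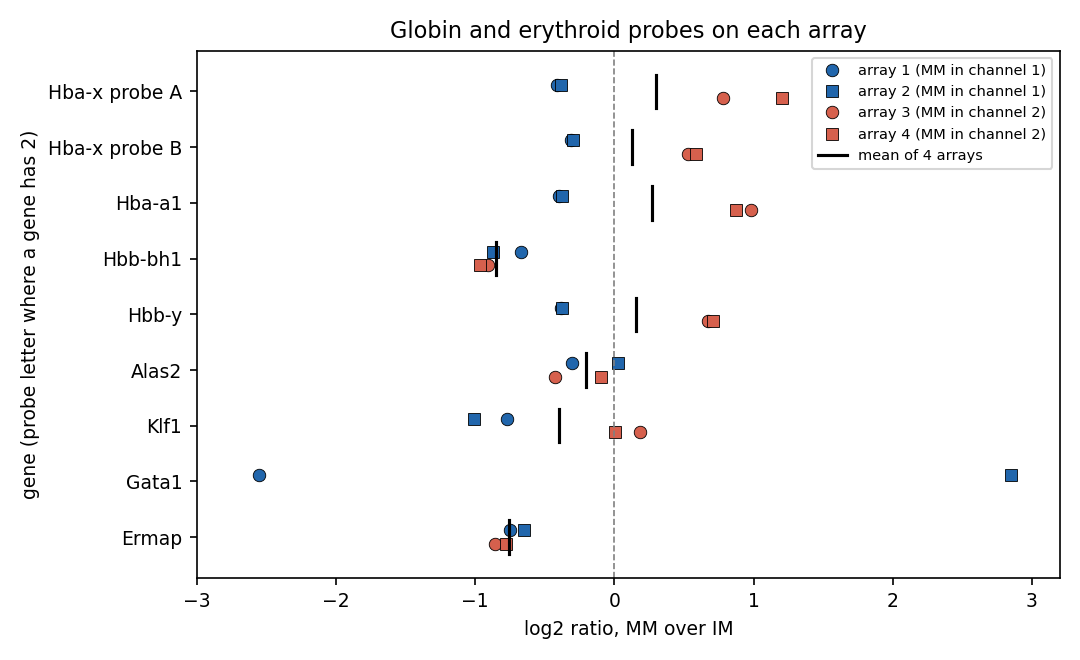
Log2 ratios of MM over IM for each probe on each array, in blue for the forward arrays (1 and 2) and in red for the swapped arrays (3 and 4), with the mean of 4 arrays as a black bar. Hbb-bh1 and Ermap lie left of 0 on every array, while Hba-x, Hba-a1, Hbb-y and Klf1 lie left of 0 on the forward arrays and right of it on the swapped arrays.

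The zeta, alpha and epsilon y globins gave opposite signs in the 2 channel orientations. Hba-a1, the adult alpha globin, gave -0.40 and -0.37 on the forward arrays (1 and 2), but 0.98 and 0.88 on the swapped arrays (3 and 4). Hbb-y, the epsilon y globin, gave -0.38 and -0.38 on the forward arrays, then 0.68 and 0.71. The 2 orientations of each gene did not overlap, and each lay on its own side of 0, a sign pattern that 18.3% of all tested probes showed.

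Both probes of Hba-x, the zeta globin, did the same. One probe, called A, was annotated to a GenBank record and gave -0.41 and -0.39 on the forward arrays, but 0.78 and 1.20 on the swapped ones. The other, called B, was annotated to the RefSeq transcript and gave -0.31 and -0.30, then 0.53 and 0.58. Probe A thus reached further above 0 on the swapped arrays than probe B, and both stood close together on the forward arrays.

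Over 4 arrays these 4 globin probes averaged slightly above 0, with SDs larger than their means. The mean was 0.27 ± 0.76 for Hba-a1, 0.15 ± 0.62 for Hbb-y, 0.30 ± 0.82 for Hba-x probe A and 0.13 ± 0.50 for probe B (SD, n = 4). With the orientation term, limma called Hba-a1 (adjusted p = 0.00725), Hbb-y (adjusted p = 0.0153) and Hba-x probe B (adjusted p = 0.0274), and did not call probe A (adjusted p = 0.0557). Leaving out 1 array ended calls: in limma, Hba-x probe B was not called without any 1 array (adjusted p = 0.0681 to 0.129), Hba-a1 not without array 1 (adjusted p = 0.0555) or 2 (adjusted p = 0.0577), and Hbb-y not without array 3 (adjusted p = 0.0761) or 4 (adjusted p = 0.089). Without the orientation term limma called none of the 4, with adjusted p-values of 0.616 to 0.74 and a 95% interval for Hba-a1 of -0.66 to 1.20. Each mean is therefore a balance between opposite ratios, 1.31-fold higher in IM on the forward arrays and 1.90-fold higher in MM on the swapped arrays for Hba-a1, and gives no tissue difference in which the arrays share a sign.

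The orientation difference itself passed in limma for these 4 probes, as it did for 44.6% of all tested probes, 19.8% lower on the forward arrays. It was -1.31 for Hba-a1 (adjusted p = 0.00324), -1.07 for Hbb-y (adjusted p = 0.00302), -1.39 for Hba-x probe A (adjusted p = 0.0153) and -0.86 for probe B (adjusted p = 0.00522). The forward arrays differed from each other by 0.00564 to 0.0266 for these 4 probes, where the median gap over all tested probes was 0.104. The swapped arrays differed by 0.0322 for Hbb-y, 0.0529 for Hba-x probe B, 0.104 for Hba-a1 and 0.42 for Hba-x probe A, against a median of 0.0814. For Hbb-bh1 the gaps were 0.2 and 0.0607, so closeness within an orientation was not shared by all globin probes. The labels do not say whether arrays of the same orientation share an RNA extract, so channel orientation and RNA extract cannot be told apart.

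**Figure D2:**
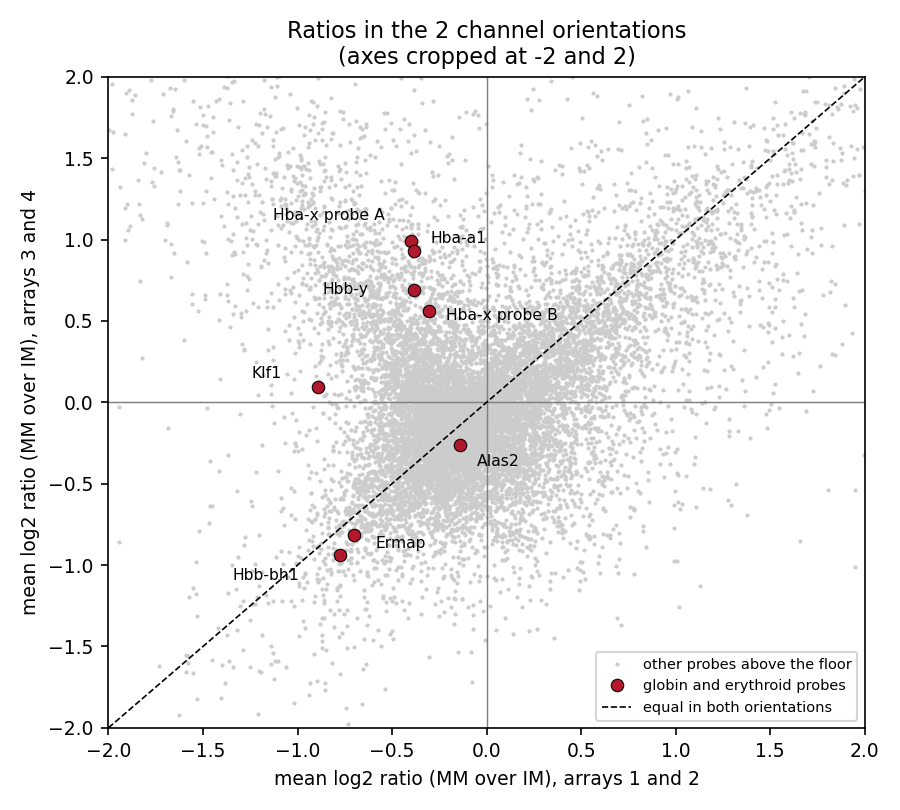
Mean log2 ratio on the forward arrays (1 and 2) against the mean on the swapped arrays (3 and 4), for the globin and erythroid probes in red and other probes above the floor in grey, on axes that stop at -2 and 2. Hbb-bh1, Ermap and Alas2 lie near the dashed line of equal ratios, and the other globin probes lie in the upper left, below 0 on the forward and above 0 on the swapped arrays, as 18.3% of all tested probes were on all 4 arrays.

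Globin transcripts were taken to come from red cells, which was not tested here, and ratios of 2 globins were also compared within each array, in 6 pairs. Hbb-bh1 minus Hba-a1 was -0.28, -0.50, -1.89 and -1.84 on arrays 1 to 4, a mean of -1.13 ± 0.86 (SD, n = 4). Hbb-bh1 minus Hbb-y was -0.29, -0.49, -1.58 and -1.67, a mean of -1.01 ± 0.72. Thus beta H1 was displaced towards IM relative to both genes on all 4 arrays, by more on the swapped arrays. The exact two-sided sign-flip permutation p was 0.125 for each, the smallest that 4 arrays allow, and 0.375 adjusted over the 6 pairs.

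The other differences between globins had smaller means and lacked a common sign over the 4 arrays. Hbb-y minus Hba-a1 was 0.01, -0.01, -0.31 and -0.17 on arrays 1 to 4 (mean -0.12 ± 0.15, exact permutation p = 0.375, adjusted 0.6). Hba-x minus Hba-a1 averaged 0.02 ± 0.22 for probe A (exact permutation p = 1) and -0.14 ± 0.27 for probe B (exact permutation p = 0.5, adjusted 0.6). The 2 Hba-x probes differed from each other by 0.17 ± 0.34 (exact permutation p = 0.5, adjusted 0.6), as much as either differed from the adult gene. These means hide larger differences on the swapped arrays. There probe A minus probe B was 0.25 and 0.62, after -0.10 and -0.09 on the forward arrays. Probe B minus Hba-a1 was -0.45 and -0.29 there, after 0.09 and 0.08. These are differences between ratios, which show unequal change and say nothing of how abundant 1 globin was against another. The Hba-a1 probe may also read Hba-a2, a near-identical copy, so its values are uncertain as those of 1 gene.

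Among the regulators, Klf1 followed the channel orientation. It gave -0.77 and -1.01 on the forward arrays, but 0.19 and 0.01 on the swapped arrays, so its IM side came from the forward arrays alone. The mean was -0.40 ± 0.58 (n = 4; limma adjusted p = 0.0134 with the orientation term and 0.339 without it), and the orientation difference was -0.99 (adjusted p = 0.0159). Leaving out any 1 array ended its call, with limma adjusted p-values of 0.0509 to 0.0789.

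Gata1, the partner of Klf1 in the erythroid programme, could not be compared. It read -2.56 on array 1 and 2.85 on array 2, opposite signs within 1 orientation, and had no value on the swapped arrays. The gap between those arrays, 5.41, was reached by 44 of the 4250 probes that had values on arrays 1 and 2 alone, whose median gap was 0.482. Of those 4250 probes, 21.7% had opposite signs on arrays 1 and 2.

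Alas2, the heme enzyme, varied within both orientations and was not called. It read -0.30, 0.02, -0.43 and -0.10 on arrays 1 to 4, a mean of -0.20 ± 0.20 (n = 4). Arrays of the same orientation differed by 0.328 and 0.33, and 3 of the 4 values lay on the IM side. Limma did not call it with the orientation term (adjusted p = 0.153, 95% interval -0.49 to 0.08) or without it (adjusted p = 0.218). The orientation difference was 0.12 (adjusted p = 0.62), and the interval still allows a difference of -0.49 towards IM. The sign change of the alpha-type globins was not seen in Alas2.

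**Figure D3:**
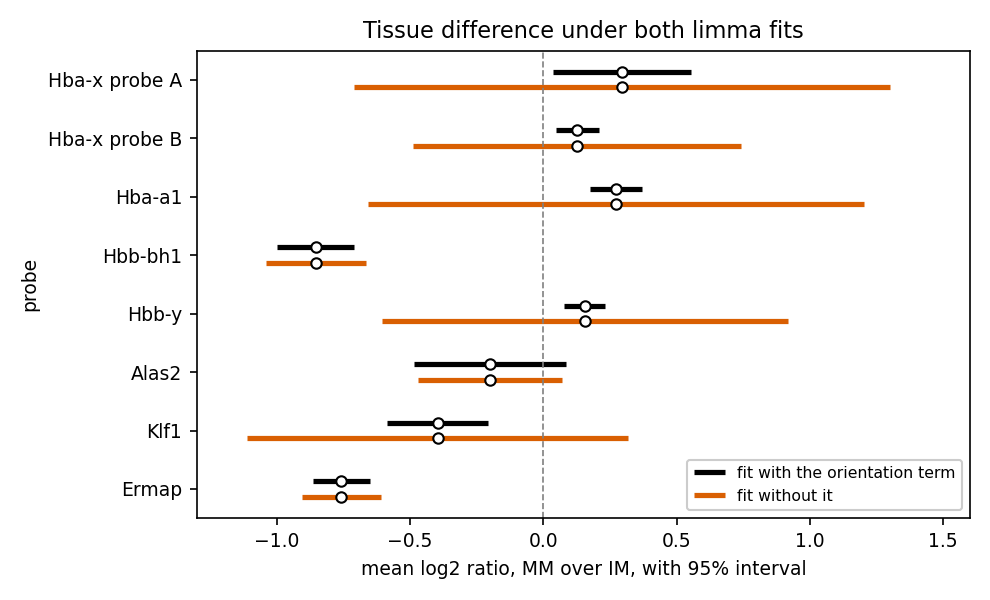
Mean log2 ratio of each probe with its 95% interval in limma, in black with the orientation term and in orange without it. Hbb-bh1 and Ermap stay clear of 0 in both fits, while the intervals of Hba-x, Hba-a1, Hbb-y and Klf1 cross 0 without the term.

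Counted over the 8 probes tested, limma with the orientation term called 6, 3 higher and 3 lower in MM. Over all 14184 tested probes it called 61.9%, with 23.8% higher and 38.1% lower, so neither count sets these genes apart. Without the term it called 2 of the 8 against 28.0% of all, with 0 higher and 2 lower, Hbb-bh1 and Ermap, against 13.6% and 14.4% of all tested probes; at an unadjusted p under 0.05 the counts were also 0 and 2. The orientation term was called for 5 of the 8, all lower on the forward arrays, and for 44.6% of all tested probes, 19.8% in that direction. The same 5 probes were below 0 on both forward arrays and above 0 on both swapped arrays, as were 18.3% of all tested probes. The median log2 ratio of the 8 was -0.39 on the forward arrays and 0.33 on the swapped arrays, beside -0.08 and -0.04 over all tested probes. These probes are not independent, since globin transcripts are taken to share their cells and 2 probes share a gene.

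Beyond these genes, 77 others were listed for heme synthesis, further globins, red cell membrane, erythroid transcription factors, iron uptake with cytokine receptors, and red cell enzymes. Of the 77, 52 had a probe measured on all arrays, 9 had values on fewer, and 16 were not analysed here, among them all 9 further globin genes. In limma with the orientation term 7 were higher in MM, 26 were lower (3 of them with a value at the floor), 2 had probes of both directions and 17 were not called. Of the 52, 13.5% were higher and 50% lower, beside 23.8% and 38.1% of all tested probes. Without the term 6 were higher and 15 lower, 11.5% and 28.8%, beside the 13.6% and 14.4% of all tested probes given above. Their median log2 ratio was -0.12, and that of all tested probes -0.08. A gene with several probes has more chances to be called than a probe, so these shares do not match in kind. The counts of each list below stand beside the same shares of all tested probes, with the same limit.

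Of 15 red cell membrane genes tested, Ermap included, 9 were lower in MM, 6 were not called and 0 were higher in limma. Among the 9 was Xk, which read 3.10 and 3.88 on the forward arrays and only the floor on the swapped arrays. Its measured values thus lay on the MM side. At an unadjusted p under 0.05 in limma, 2 genes were higher. Without the orientation term 5 were lower and 0 higher, where limma called 14.4% of all tested probes lower and 13.6% higher. With the term those shares were 38.1% and 23.8%. Gypc, the glycophorin that anchors the membrane skeleton, was lower by -0.40 ± 0.05 (adjusted p = 0.00261), with values of -0.46, -0.39, -0.35 and -0.39. Rhd, the Rhesus blood group protein, was lower by -0.38 ± 0.07 (adjusted p = 0.00309), at -0.34, -0.31, -0.47 and -0.38. Each array of both genes lay on the IM side, with smaller ratios than those of Ermap. The water channel Aqp1 (-0.35 ± 0.07), which capillary endothelium also carries, and the blood group protease Kel (-0.28 ± 0.09) were lower too.

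Of 13 erythroid transcription factors tested, Klf1 included, 8 were lower (1 with a probe at the floor), 1 was higher and 4 were not called. Without the orientation term 3 were lower and 1 higher. Of all tested probes, limma called 38.1% lower with the term and 14.4% without it. Zbtb7a, a repressor of embryonic and fetal globin genes, was lower by 1 probe at -1.09 ± 0.34 (adjusted p = 0.000762). Its other probe went the other way on the forward arrays, at 2.18 and 1.04, and was at the floor on the swapped arrays. Bcl11a, another such repressor that neurons also express, was lower at -0.75 ± 0.04 (adjusted p = 0.000998). Zfpm1, the partner protein of Gata1, was lower at -0.39 ± 0.07. Lmo2, a bridging protein of the Gata1 complex that endothelium shares, was higher at 0.78 ± 0.36 (adjusted p = 0.000859).

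Genes of heme synthesis showed no common side. Of 7 tested, Alas2 included, 2 were higher, 2 lower and 3 not called, and without the orientation term 1 was higher and 1 lower. Fech, which inserts iron into the ring, was higher in MM (0.37 ± 0.13, adjusted p = 0.0031), and Uros, an earlier enzyme, was lower (-0.43 ± 0.21, adjusted p = 0.00205). Of 10 genes of iron uptake and cytokine receptors, 2 were higher, 3 lower, 1 had probes of both directions and 4 were not called; without the orientation term 2 were higher and 3 lower. The erythropoietin receptor Epor read -0.50, -0.52, -0.38 and -0.52 (mean -0.48 ± 0.07, adjusted p = 0.00278), so it too was lower in MM on every array. The stem cell factor receptor Kit (-0.44 ± 0.04) was lower, and Tfrc, the transferrin receptor, was lower by 1 probe (-0.25 ± 0.06) and not called by the other (0.05 ± 0.07). Abcb10, a mitochondrial transporter of the heme pathway, was higher (1.37 ± 0.18, adjusted p = 0.00186). Trf, the gene with probes of both directions, was higher by 2 probes, at 1.55 ± 0.05 (limma adjusted p = 0.00033) and 1.54 ± 0.21 (limma adjusted p = 0.000982). Its lower call came from a probe that read 2.54 and 0.80 on the forward arrays and only the floor on the swapped arrays.

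Of 10 red cell enzymes and antioxidants, 2 were higher, 6 lower (1 with values at the floor), 1 had probes of both directions and 1 was not called. Without the orientation term 2 were higher and 4 lower. Of all tested probes, limma called 38.1% lower with the term and 14.4% without it. Blvrb, a biliverdin reductase of red cells (-0.48 ± 0.23), Bnip3l, which clears mitochondria from maturing red cells (-0.42 ± 0.09), and Trim10, an erythroid factor (-0.34 ± 0.10), were lower in both fits. The peroxidase Prdx2 (1.11 ± 0.37) and the carbonic anhydrase Car2 (0.62 ± 0.19) were higher in both fits, and neither is restricted to red cells. Whether the lower genes of the erythroid lists were read from red cells was not tested. Car1, the carbonic anhydrase most abundant in red cells, gave -0.26 and -0.12 on the forward arrays and only the floor on the swapped ones, so it has no measured fold. Cat, the gene with probes of both directions, was higher by 1 probe (1.89 ± 1.04, limma adjusted p = 0.00758, and 0.0513 without the orientation term). Its lower call came from a probe that read 3.03 and -0.42 on the forward arrays and only the floor on the swapped arrays.

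**Figure D4:**
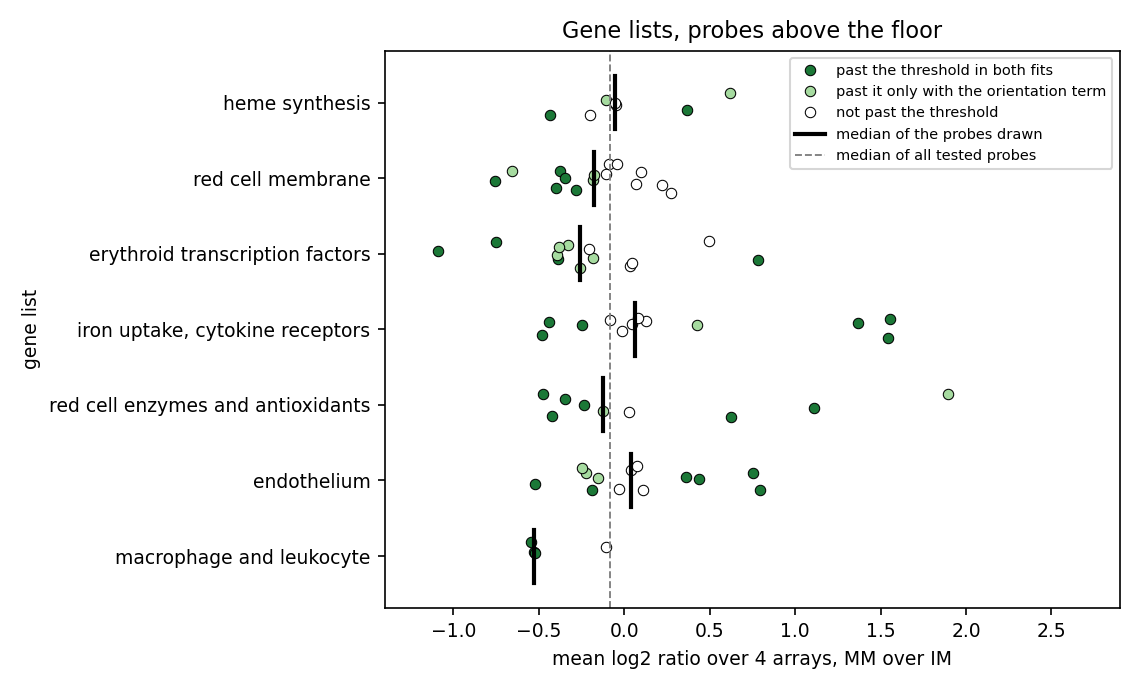
Mean log2 ratio over 4 arrays of each probe above the floor in the listed gene groups, coloured by whether it passed in both limma fits, only with the orientation term, or not at all. Thick bars are medians of the probes drawn and the dashed line is the median of all tested probes (-0.08); vertical spread within a row has no meaning.

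Markers of other cells in these tissues were read on the same arrays. Of all tested probes, limma called 23.8% higher and 38.1% lower with the orientation term, and 13.6% and 14.4% without it. Of 13 endothelial genes, 4 were higher, 5 lower and 4 not called (4 and 2 without the orientation term), with Cd34 at 0.79 ± 0.07 and Tek at -0.52 ± 0.07. The list thus went both ways, and Cdh5, the endothelial cadherin, read -0.03 ± 0.50. Of 5 macrophage and leukocyte genes tested, 3 were lower and 2 not called in both fits, with a median of -0.53. The 3 were Mrc1 (-0.54 ± 0.05), Cd68 (-0.53 ± 0.20) and Laptm5 (-0.53 ± 0.02), and 0 were higher in limma in either fit, also at an unadjusted p under 0.05. Their part in the values of Hbb-bh1 and Ermap was not tested.

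Of 5 megakaryocyte and platelet genes tested, which share Gata1 with red cells, 1 was lower, 4 were not called and 0 were higher in limma, also at an unadjusted p under 0.05; without the orientation term 0 were called, also at an unadjusted p under 0.05. Their median was -0.30 on the forward and 0.17 on the swapped arrays, so a mean near 0 in this list can hold opposite signs. Of 7 genes of blood progenitors tested, 3 were higher, 3 lower and 1 not called, and without the orientation term 3 were higher and 1 lower; Lmo2, Cd34 and Kit, named above, were among them, and Hhex was higher at 1.11 ± 0.25. The labelled tissues were checked on 10 listed kidney and intermediate mesoderm genes that were tested, of which 4 were higher, 2 lower and 4 not called (4 higher and 1 lower without the orientation term). Six2 (3.00 ± 0.63), Gdnf (1.92 ± 0.13), Hoxa11 (1.92 ± 0.59) and Osr1 (0.44 ± 0.17) were above 0 on all 4 arrays. Wt1, which metanephric mesenchyme is also known to express, went the other way, at -1.57 ± 0.02, as did Pax8 at -0.38 ± 0.22. Eya1, Pax2, Hoxd11 and Lhx1 were not called. The listed genes thus did not all lie on the side of the labelled mesenchyme, and need not, since the list covers both tissues.

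The genes whose 4 values lay nearest to the median profile of the 8 probes (-0.41, -0.38, 0.36 and 0.30) were sought among 10861 named probes by Euclidean distance over the 4 arrays. They were Nap1l4, a histone chaperone (distance 0.049), F8a (0.081), 4930546C10Rik (0.103), Cenpw, a centromere protein (0.111), and 9130019P16Rik (0.116). Nap1l4 read -0.43, -0.35, 0.33 and 0.29, with the change of sign between orientations that the median profile holds. That change follows from how the genes were picked, and 18.3% of all tested probes showed it. No listed blood gene was among the 5, but 6 of the 52 other listed erythroid genes tested had a probe with that change of sign.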

How the data were processed

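Gene expression was measured in 2 tissues on 4 two-colour arrays. Each deposited value is a log2 ratio of MM to IM for a probe on an array. Per the labels, the authors quantified spots with Imagene 5.5, exchanged the channels of arrays 3 and 4 for the dye swap, adjusted the control channel by a lowess fit on 20.0% of the data, and raised control values below 10 to 10. How background and poor spots were handled is not stated in the labels. The base of the logarithm was inferred from the values. The table holds no intensities, so the number of arrays limits the precision.

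Arrays held 15812 to 21599 values, with 8 to 1805 at the floor; Pearson's r over probes above the floor was 0.836 to 0.912 within an orientation and 0.113 to 0.274 between orientations. The 14184 probes with 4 values were fitted with limma 3.58.1 (R 4.3.3), using a tissue mean plus an orientation effect, which leaves the residual to same-orientation pairs; p-values were adjusted by Benjamini-Hochberg with a threshold of 0.05. Whether arrays share extracts is not labelled, so the spread behind each p-value may be technical. The script was tested on simulated data that took the arrays as independent, so that test says nothing of shared extracts. Of all probes, 17252 had 1 symbol, 156 several and 5294 none; 16566 matched RefSeq by gene identifier.

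The genes, lists, motifs and tests were chosen with earlier results of these data known. Named genes were all member probes, up to 3 per direction and list with the largest mean among those past the threshold in both fits with 1 sign and no floor value, defining markers of the listed cells, and the 5 nearest probes. Aqp1, Kel, Car1, Cat and the pairs of Hbb-bh1 with Hbb-y and of both Hba-x probes were named after their values were seen. No list was tested as a set.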

Additional observations from a re-analysis of the deposited data

Results flagged for a closer look

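In 5 of the 8 probes tested, the log2 ratio on arrays 1 and 2 differed from that on arrays 3 and 4 by the orientation term in limma. The difference was -1.39 for Hba-x probe A, -0.86 for Hba-x probe B, -1.31 for Hba-a1, -1.07 for Hbb-y and -0.99 for Klf1, each with arrays 1 and 2 on the IM side. The term was called for 44.6% of all tested probes. No probe of these genes had 1 array far from the other 3.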

How the results depend on the processing

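Over all tested probes, 8779 calls became 3968 without the orientation term, 5808 to 6782 with 1 array left out and 0 with each orientation averaged to 1 value, where 1526 had an unadjusted p under 0.05 in limma. Of the 8 probes of the globins and erythroid genes, 6 were called, 2 without the term, 3 to 4 with 1 array left out and 0 with orientations averaged (2 at an unadjusted p under 0.05). Without array 3, 4 were called, and without array 1, 2 or 4, 3 were called. Of the other listed erythroid genes, 35 were called, 21 without the term and 0 with orientations averaged (5 at an unadjusted p under 0.05); with 1 array left out 25 to 27 were called. The averaged fit holds only 2 values per probe.

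On arrays 1 and 2 alone the sign turned for Hba-x probe A (-0.40), Hba-x probe B (-0.30), Hba-a1 (-0.39) and Hbb-y (-0.38), and on arrays 3 and 4 alone for Klf1 (0.10). With the sign of arrays 3 and 4 turned, an alternative chosen after seeing the data because the labels do not give the dyes, means became -0.70, -0.43, -0.66 and -0.54 for those 4 probes, 0.0811 for Hbb-bh1, 0.061 for Alas2 and 0.0589 for Ermap, while Klf1 stayed below 0. As deposited, Six2, Gdnf and Wt1 each had 1 sign on all 4 arrays, which that turn would split between orientations. Differences between ratios turned on arrays 1 and 2 alone for Hba-x probe A minus Hba-a1 (-0.0142), Hba-x probe B minus Hba-a1 (0.0824), Hbb-y minus Hba-a1 (0.0038) and Hba-x probe A minus probe B (-0.0967); with 1 array left out the first ranged from -0.0755 to 0.0991. The cause was not tested. Hba-x probe A passed without array 3 (adjusted p = 0.0269), with arrays centred (adjusted p = 0.0387) and after removal of floor probes (adjusted p = 0.0461), in a range of 0.0269 to 0.86 over 11 alternatives. Calls were lost without the term, with orientations averaged and in the fits without 1 array given above for Hba-x probe B, Hba-a1 and Hbb-y, and for probe B also with arrays scaled (adjusted p = 0.0708); of 11 alternatives, 4, 7 and 7 called them. Each log2 ratio already pairs both tissues within an array, and the limma fits and sign-flip tests are tests of that pair. No paired analysis was possible because array numbers recur in no second group that a replicate block could join.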

Other observations

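A probe annotated to Hbb-bh3, a beta-type pseudogene, was noticed after its values were seen. It gave -0.62 and -0.31 on the forward arrays, but 0.60 and 0.34 on the swapped arrays, the sign pattern of Hbb-y (mean 0.00 ± 0.56, limma adjusted p = 0.982; orientation difference -0.93, adjusted p = 0.0274). A probe of the alpha pseudogene Hba-ps3 gave -4.14 and -0.14 on the forward arrays and only floor values on the swapped ones, so it has no measured fold.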
